A study of Mus musculus with 12 samples.

Results

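The baseline miRNA cargo of microglial exosomes was described from the 3 sham arrays of a series of 12, each hybridized with RNA from exosomes of mouse brain. Every one of the 3 sham arrays was used, and the injury arrays were not analysed here. The sham mice were adult male C57BL/6 animals that went through anesthesia with 4.6% isoflurane and the handling of the injury model, without the 4 impacts 48 h apart that define repetitive mild traumatic brain injury (rmTBI) in the other groups (3, 14 and 42 DPI, days post-injury). Per the study's methods, cortex and hippocampus of both sides were digested with papain, and the exosomes were precipitated, ultracentrifuged and pulled down with an antibody against CD11b, whereas the labels give the tissue as cerebrum and name the injured hemisphere. CD11b is found on microglia and also on other myeloid cells. Neither source gives the day on which sham mice were killed. The methods state in general that data came from 3 or more independent experiments, but neither source says for the arrays whether the 3 samples were separate or pooled animals, so part or all of the spread between arrays may be technical.

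A miRNA is a short RNA cut from a hairpin precursor, and either arm of the hairpin (5p or 3p) can be kept while the other is degraded. The kept strand is loaded into an Argonaute protein and pairs with target mRNAs mainly through its seed, bases 2 to 8, so miRNAs with the same seed form a family with overlapping targets. Exosomes are vesicles of endosomal origin that carry such RNAs out of the cell and into others. In brain, microglia exchange vesicles with neurons and other glia.

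The array measured 1881 mouse miRNAs with 4415 probes. Detection on an array required at least 1 probe of a miRNA with over 0.5 of its spots, outlier spots removed, well above background as flagged by the scanner software. By this rule 234 miRNAs (12.4%) were detected on all 3 sham arrays, 23 on 2 arrays, 64 on 1 array and 1560 on 0 arrays. The 234 miRNAs were ranked by the summed, background-corrected signal of their probes. A rank is one of signal and not of the number of molecules, because probes differ in how they respond to their target.

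Mature sequences were taken from RefSeq (build GRCm38.p6), which matched 205 of the 234 detected miRNAs. The seed is in capitals in each sequence. The let-7 family and miR-98 are shown because 8 of the 9 stood among the 20 brightest miRNAs and because their sequences differ little.
let-7a-5p: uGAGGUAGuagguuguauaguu
let-7b-5p: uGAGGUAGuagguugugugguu
let-7c-5p: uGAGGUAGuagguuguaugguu
let-7d-5p: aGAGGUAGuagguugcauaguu
let-7e-5p: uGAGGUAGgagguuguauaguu
let-7f-5p: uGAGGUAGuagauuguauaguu
let-7g-5p: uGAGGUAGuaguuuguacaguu
let-7i-5p: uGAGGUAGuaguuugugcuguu
miR-98-5p: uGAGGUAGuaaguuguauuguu

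All 9 carry the seed GAGGUAG. The other bright miRNAs with a matched sequence are shown next, because together with let-7 they carried most of the signal. Within this set the 3 members of miR-29 share the seed AGCACCA, and the others each have a different seed.
miR-494-3p: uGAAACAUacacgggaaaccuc
miR-3473b: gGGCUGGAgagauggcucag
miR-3963: uGUAUCCCacuucugacac
miR-29a-3p: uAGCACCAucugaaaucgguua
miR-29b-3p: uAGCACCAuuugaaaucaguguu
miR-29c-3p: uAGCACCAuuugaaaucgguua
miR-5622-3p: cUUAGCUGgguagugguggugc
miR-125b-5p: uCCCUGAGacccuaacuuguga
miR-9-3p: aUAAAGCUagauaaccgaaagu
miR-128-3p: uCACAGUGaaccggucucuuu
miR-26a-5p: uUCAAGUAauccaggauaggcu

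A last set is shown because these miRNAs stand in the cell type lists, and because some were detected and some were not. miR-142a-3p and miR-223-3p are miRNAs of blood and myeloid cells, miR-21a-5p is made by microglia among many cell types, and the others are used for oligodendrocytes (miR-338-3p), endothelium (miR-126a-3p) and epithelium (miR-429-3p).
miR-21a-5p: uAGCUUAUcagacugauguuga
miR-142a-3p: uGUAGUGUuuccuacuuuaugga
miR-223-3p: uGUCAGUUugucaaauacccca
miR-338-3p: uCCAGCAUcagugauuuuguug
miR-126a-3p: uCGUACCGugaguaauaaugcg
miR-429-3p: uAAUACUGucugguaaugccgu

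The arrays were similar in depth but not alike. On replicates 1, 2 and 3, 285, 243 and 284 miRNAs were detected, the dimmest of them at signals of 15.1, 17.2 and 14.0, and the 75th percentile of the 234 was 279, 213 and 337. No spot was saturated, and the 3 arrays were on 1 slide. Values were divided by each array's 75th percentile and put on the log2 scale wherever a spread is given, and such a value is a scaled log2 signal. Across the 234 miRNAs, the Pearson correlation of log2 signals was 0.984 between replicates 2 and 3, 0.953 between 1 and 2, and 0.920 between 1 and 3, and these values describe miRNAs of shared libraries, which are not independent replicates. The median SD between the 3 arrays was 0.31 on the scaled log2 scale and was 0.14 without replicate 1. No miRNA had the same value on 2 arrays.

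Replicate 1 stood apart, and it did so for a definable group of miRNAs. Its scaled log2 signal minus the mean of replicates 2 and 3 had a median of 0.62 over the 64 detected miRNAs with a GC content over 60%, of which 51 were higher on replicate 1. Over the 141 with a GC content of 60% or less the median was -0.39, and 26 were higher on replicate 1. Taken likewise against the mean of the other arrays, replicate 2 had a median of -0.10 over the 64 and replicate 3 of -0.56. Replicates 2 and 3 thus also differed over the 64. Over the 141 their medians were 0.17 and 0.24. The difference of replicate 1 correlated with GC content across the 205 miRNAs with a sequence (Pearson r = 0.57, Spearman rho = 0.57, given as a description of 1 array). Of the 68 detected miRNAs with a name number of 3000 or more, 60 were higher on replicate 1 (median 0.79), against 32 of the other 166 (median -0.38). Why replicate 1 differed was not tested, and some counts and ranks are also given without it.

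**Figure D1:**
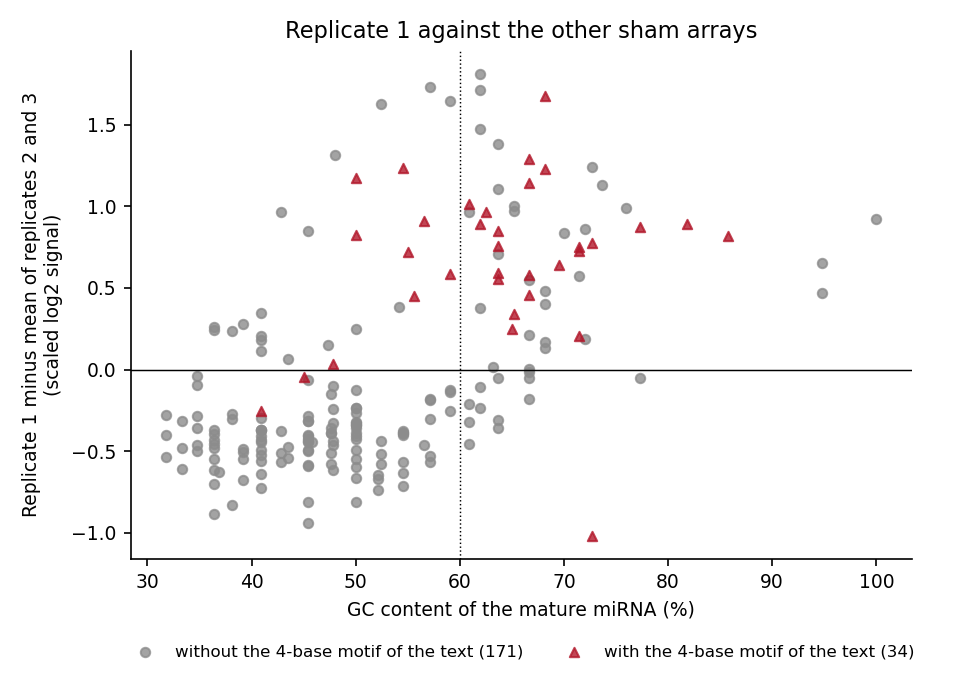
Each point is 1 of the 205 detected miRNAs with a matched sequence, with its GC content in percent on the horizontal axis and the scaled log2 signal of sham replicate 1 minus the mean of replicates 2 and 3 on the vertical axis. The dotted line marks 60% GC, above which 51 of 64 points lie over 0, and red triangles mark the 34 miRNAs that hold the 4-base motif GGAG, which has been tied to sorting into exosomes, of which 31 lie over 0.

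A few miRNAs carried most of the signal. The 10 brightest held 46.3%, 43.5% and 41.0% of the summed signal of the 234 on replicates 1, 2 and 3, the 20 brightest held 59.2%, 59.8% and 60.4%, and between 12 and 14 miRNAs were enough to reach 50%. The list was made of a bright let-7 family, the miR-29 family, brain-enriched miR-9, miR-125b and miR-128, miR-494 and a few miRNAs with late numbers. Of the 20 brightest by the mean over arrays, 16 were among the 20 brightest on every array. In the plot of the 20 brightest, replicate 3 gave the highest signal for most of them, as it did for the array as a whole.

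miR-494-3p, from the imprinted Dlk1-Dio3 cluster on chromosome 12 (chr12:109715367-109715388, + strand), ranked first with signals of 13108, 7442 and 6571 on replicates 1, 2 and 3, first on replicates 1 and 2 and after let-7c-5p on replicate 3. It took 12.6%, 9.54% and 5.55% of the summed signal. It was highest on replicate 1 also after scaling (4.99 ± 0.65, mean ± SD of the scaled log2 signal, n = 3, as for all such values below), and it kept rank 1 without that array. miR-3473b, which lies within the span of Ccdc162 (chr10:41670774-41670793, + strand), ranked 2 with 6064, 4043 and 5932, and 3 without replicate 1. miR-3963 (chr3:151023839-151023857, - strand) ranked 4 with 4869.9, 3108 and 5698, and both of these varied little after scaling (SD 0.15 and 0.14).

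miR-5622-3p, within the span of Tpx2 (chr2:152865105-152865126, + strand), depended most on the array among the 20 brightest. Its signals were 6153, 2108 and 1703, which put it at rank 2 on replicate 1, rank 9 on replicate 2 and rank 18 on replicate 3. Without replicate 1 its rank moved from 8 to 12. On replicate 1, 7 of the 20 brightest had a name number of 3000 or more, against 3 on replicate 2 and 3 on replicate 3.

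**Figure D2:**
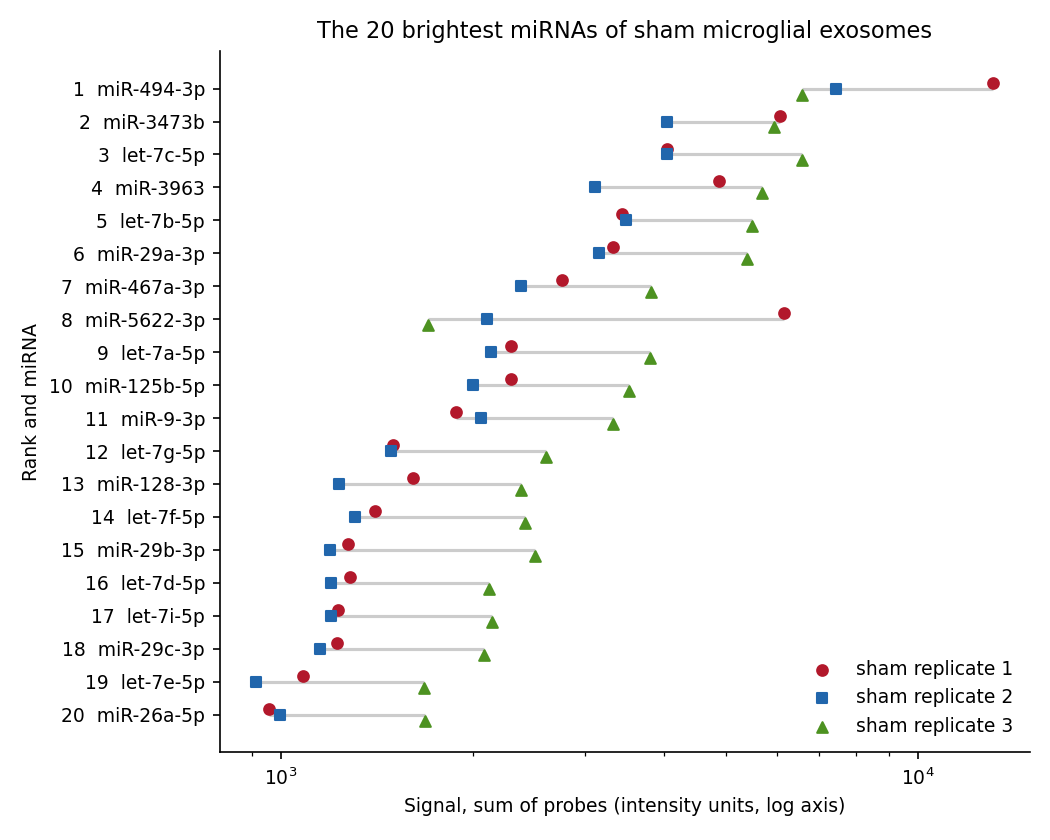
The horizontal axis gives the summed probe signal in intensity units on a log axis, with 1 point per sham array for each of the 20 brightest miRNAs, ordered by the mean log2 signal, and grey lines span the 3 values. miR-494-3p runs from 6571 to 13108, and miR-5622-3p and miR-494-3p have replicate 1 far to the right of the others.

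The let-7 family held 15.6%, 20.3% and 22.7% of the summed signal on replicates 1, 2 and 3. All 9 of its members on the list (with miR-98) were detected on the 3 arrays, beside 12.4% of all miRNAs on the array. These miRNAs rise as cells differentiate and repress Lin28 and other growth-related targets. let-7c-5p, encoded on chromosomes 15 and 16, was brightest with 4037, 4036 and 6575, and it was rank 3 with replicate 1 and rank 2 without it. let-7b-5p, next to it on chromosome 15 in the span of the long noncoding RNA Lncppara, followed with 3428, 3480.3 and 5489. let-7a-5p gave 2299, 2137 and 3796.

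let-7d, let-7e, let-7f, let-7g and let-7i ranked between 12 and 19, with signals from 1498, 1488 and 2612 for let-7g-5p to 1082, 916 and 1677 for let-7e-5p. miR-98-5p, which shares the seed and a gene span (Huwe1) with 1 copy of let-7f, was far dimmer at 31.0, 26.1 and 50.0, rank 215. On all 3 arrays the order let-7c, let-7b, let-7a held at the top of the family and miR-98 stood last. Of the 36 pairs that the 9 sequences form, 14 differ at 1 or 2 bases and no pair at more than 6, so a probe could also bind a near relative, and how far it did was not tested.

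The miR-29 family, which represses collagen and other matrix genes, had 3 of 3 members detected, beside 12.4% of all miRNAs on the array. It held 5.57%, 7.05% and 8.43% of the signal. miR-29a-3p (chr6:31062673-31062694, - strand) gave 3323, 3154 and 5383 and ranked 6. miR-29b-3p gave 1273, 1195 and 2506, and miR-29c-3p gave 1224, 1151 and 2085. Replicate 3 was highest for each of the 3, and the scaled SD was between 0.22 and 0.35.

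Among the other leading miRNAs were several that brain tissue is known for. miR-125b-5p ranked 10 with 2297, 2005 and 3519. miR-9-3p, from hairpins on chromosomes 3, 7 and 13 that are active in neural progenitors and neurons, gave 1882, 2061 and 3318. miR-128-3p, whose copies lie within the spans of R3hdm1 and Arpp21, gave 1613, 1234 and 2386. Each of these 3 was brightest on replicate 3. miR-26a-5p, within the spans of Ctdsp2 and Ctdspl, closed the 20 with 958, 996 and 1687. miR-132-3p, which neuronal activity induces through CREB, followed at rank 21 with 817, 1147 and 1647.

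Neighbours in this order mostly differed by less than the spread of each between arrays. Of the 19 pairs of neighbouring ranks among the 20 brightest, 15 differed by less than the larger of their 2 SDs on the scaled log2 scale. Such an SD ignores that both miRNAs of a pair were read on the same 3 arrays. It therefore does not show whether an order held within each array. The largest step, 0.71, was between miR-494-3p and miR-3473b and was close to the SD of miR-494-3p (0.65).

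The name of the miRNA at rank 7 was uncertain. Its probes carry the name miR-467a-3p and gave 2761, 2383 and 3816, with a scaled SD of 0.11. On every sham array, 1 of the 15 spots of its dimmer probe was named miR-124-3p, and 1 of the 8 spots of a probe otherwise named miR-124-3p was named miR-467a-3p. By their catalog numbers, the 2 bright probes lie between probes of miR-101a-3p and probes of miR-125a-5p or miR-126a-5p, while the 4 probes named miR-124-3p lie between those of miR-1193-5p and miR-224-3p. The probes named miR-124-3p were not well above background on any array (8.41, 7.63 and 11.0). With each probe under the name that most of its spots carry, as used throughout, miR-124-3p was not detected. With the 2 names exchanged, miR-124-3p would stand at rank 7 and miR-467a-3p would not be detected. The deposited files used here do not settle which holds.

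Neuronal miRNAs made up the longest of the cell type lists and were mostly detected. Of the 14 members, 12 were detected on all 3 arrays (85.7%, beside 12.4% of all miRNAs on the array), and they held 6.36%, 8.41% and 9.44% of the signal. Besides miR-9-3p, miR-128-3p and miR-132-3p, the members were miR-9-5p (439, 453 and 747), miR-218-5p (402, 340.4 and 668), miR-129-2-3p (354, 258 and 492) and miR-137-3p (327, 242 and 466). miR-129-5p, miR-138-5p, miR-153-3p and miR-7a-5p ranked between 61 and 66, and miR-212-3p, from the same transcript as miR-132, was dimmer at 38.5, 38.4 and 60.8. The 2 members not detected were miR-124-5p (12.2, 12.2 and 16.4) and, subject to the naming above, miR-124-3p. With the 2 names exchanged the count was 13 of 14. Each of the 12 was lower on replicate 1 than the mean of the other arrays on the scaled scale. This was not particular to the list, as only 32 of the 166 detected miRNAs numbered under 3000 were higher on replicate 1.

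Of the 6 miRNAs listed for microglia and myeloid cells, only miR-21a-5p was detected on the 3 arrays (1 of 6, 16.7%, beside 12.4% of all miRNAs on the array), with 152, 162 and 280.5 and rank 76 (-0.51 ± 0.32). miR-223-3p, a miRNA of granulocytes and monocytes, was near the limit with 18.7, 18.2 and 21.9, and passed on replicate 3 only. miR-142a-3p, a marker of all blood lineages, gave 9.36, 8.20 and 9.07, and 0 of its spots were well above background on any array. miR-142a-5p (-1.57, -1.81 and -1.03), miR-146a-5p (6.48, 6.79 and 9.43) and miR-155-5p (5.27, 3.20 and 4.03), the last 2 induced by NF-kB in activated macrophages and microglia, were not well above background either. The count was 2 of 6 by the scanner software's call per miRNA and 2 of 6 with any 1 spot above background. miR-21a-5p held 0.15%, 0.21% and 0.24% of the signal. The share of the list lay near that of the whole array, so nothing on the source of the material is read from it. Values below 0 come from background subtraction. The lists were written for cells, and whether exosomes keep the proportions of their cells was not tested.

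The oligodendrocyte miRNAs on the list were all detected. Over all miRNAs on the array 12.4% were, a share that also stands beside the vascular and erythroid counts below. miR-338-3p, within the span of Aatk (chr11:120014781-120014802, - strand), gave 373, 425 and 654, miR-219a-5p gave 102, 85.7 and 164, and miR-219a-2-3p gave 38.5, 26.8 and 53.7 (3 of 3 detected). Both miR-219 and miR-338 drive the maturation of oligodendrocytes. Of 4 vascular miRNAs, endothelial miR-126a-3p, within Egfl7 (chr2:26591402-26591423, + strand), was detected with 286, 301 and 437, while its other arm and miR-143-3p and miR-145a-5p of smooth muscle were not. The 4 erythroid miRNAs measured, among them miR-451a (9.44, 17.4 and 14.8), were not detected on any array. In exosomes and in tissue alike, fewer vesicles from a cell type and less of a miRNA per vesicle cannot be told apart.

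All 5 members of the miR-200 family, which mark epithelial cells and repress Zeb1 and Zeb2, were detected, beside 12.4% of all miRNAs on the array. miR-429-3p (chr4:156053916-156053937, - strand) was brightest with 199, 203 and 135, followed by miR-200b-3p with 117, 119 and 74.8, miR-200a-3p with 82.8, 83.9 and 58.6 and miR-200c-3p with 72.5, 87.2 and 50.9. miR-141-3p was the dimmest of the 234 with 26.5, 23.8 and 16.8. Each of the 5 was lowest on replicate 3, the array on which most miRNAs were brightest, and their scaled SDs were between 0.60 and 0.72, against a median of 0.31 over the 234. Only miR-429-3p was well above background on all of its probes on the 3 arrays. Of 5 miRNAs of muscle, liver and islets, 0 were detected on all 3 arrays, although miR-1a-3p of muscle passed on replicates 2 and 3 (14.7, 18.7 and 31.0).

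**Figure D3:**
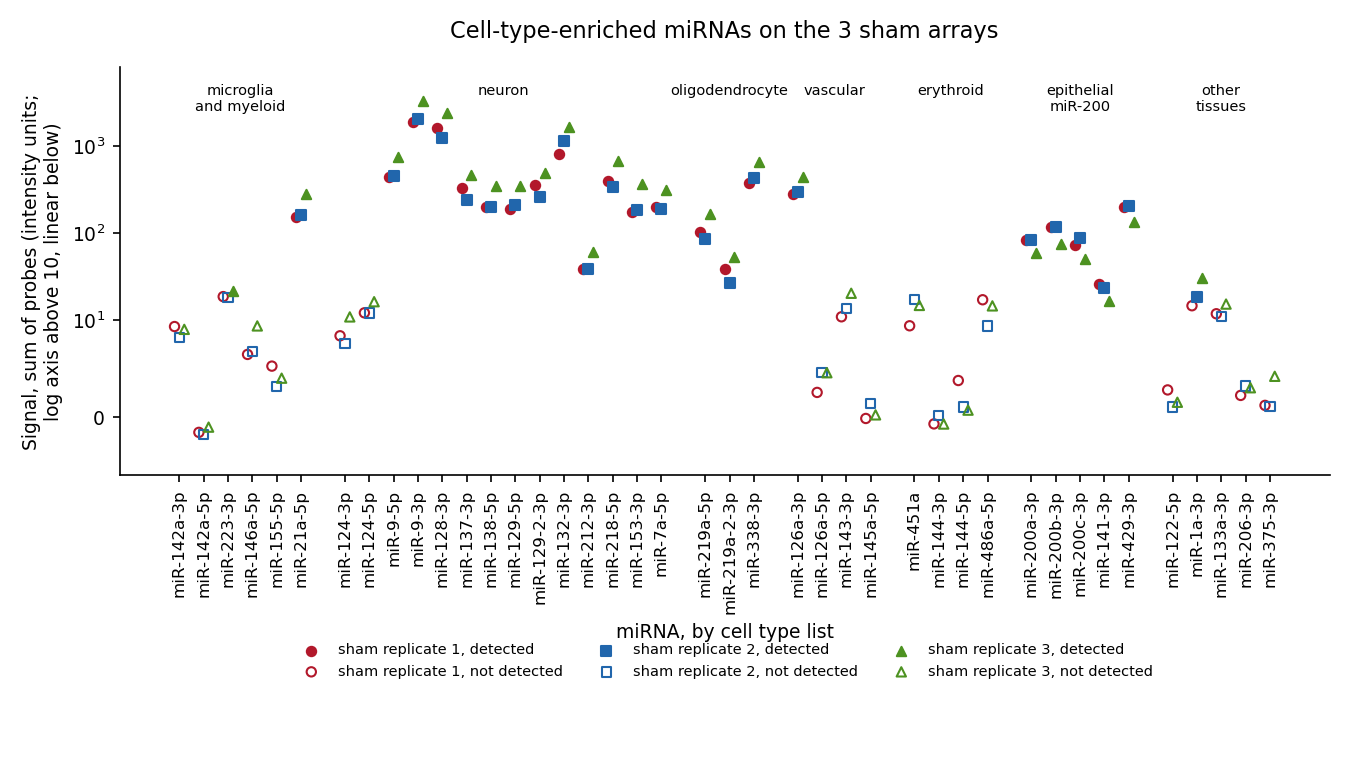
The vertical axis gives the summed probe signal in intensity units (log above 10, linear below) for each member of 7 cell type lists, with 1 point per sham array, filled where the miRNA was detected and open where it was not. Of the microglia and myeloid list miR-21a-5p alone is filled on 3 arrays, against 12 of 14 neuronal members, and the 5 miR-200 members have replicate 3 as their lowest point.

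Broad families were nearly complete as listed here. Over all miRNAs on the array 12.4% were detected, a share that stands beside each count in this paragraph. All members of the lists for miR-30 (5 of 5), miR-23, miR-27 and miR-24 (5 of 5), miR-99, miR-100 and miR-125 (5 of 5), miR-181 (4 of 4), miR-26 (2 of 2) and miR-221 and miR-222 (2 of 2) were detected on the 3 arrays. Grouped by seed instead, over miRNAs with a matched sequence only, ACAUUCA (4 of 4), ACCCGUA (3 of 3), UCAAGUA (2 of 2) and UCACAGU (2 of 2) were complete. The seeds GUAAACA (3 of 4), GCUACAU (2 of 3) and CCCUGAG (2 of 5) were not. Detected miR-30b-5p and miR-30d-5p had no matched sequence and are missing from the seed counts. Completeness therefore depends on how a group is drawn and on which members have a sequence. Of miR-15, miR-16, miR-103 and miR-107 and their relatives, 8 of 9 were detected, with miR-103-3p (761, 808 and 1259.8) and miR-107-3p (734, 767 and 1185) brightest, and miR-503-5p was not well above background. miR-34a-5p, which p53 induces, gave 690.2, 679 and 1034, and miR-34b-5p and miR-34c-5p were also detected, but miR-449a-5p was not.

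The proliferation-linked miR-17-92 cluster and its paralogs were only partly visible. Of the 12 members measured, 6 were detected, beside 12.4% of all miRNAs on the array. These 6 were all dim, from miR-19b-3p (73.0, 87.6 and 144) to miR-93-5p (17.9, 20.5 and 36.6), and none of them had every probe above background on all 3 arrays. miR-17-5p (-5.41, -3.42 and -3.67), miR-18a-5p, miR-18b-5p, miR-19a-3p, miR-20b-5p and miR-363-3p were not detected. Of the 3 members of the miR-148 and miR-152 family, 0 were detected on any array (miR-148a-3p gave 10.4, 10.8 and 18.2). The same held for 82.9% of all miRNAs on the array.

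By seed, the 205 detected miRNAs with a sequence held 165 distinct seeds. Of these, 21 were shared by 2 or more detected miRNAs, 61 miRNAs in all. These counts leave out miRNAs without a matched sequence. The seed GAGGUAG was carried by 9 detected of 11 on the array with a sequence (let-7k and miR-1961 were not detected). AGCAGCA of miR-15 and miR-16 was carried by 6 of 10, ACAUUCA of miR-181 by 4 of 4, and AAUACUG of miR-429, miR-200b and miR-200c by 3 of 3. In the seed groups of miR-15/16 and miR-17, the members not detected included late-numbered names such as miR-6342 and miR-6383.

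**Figure D4:**
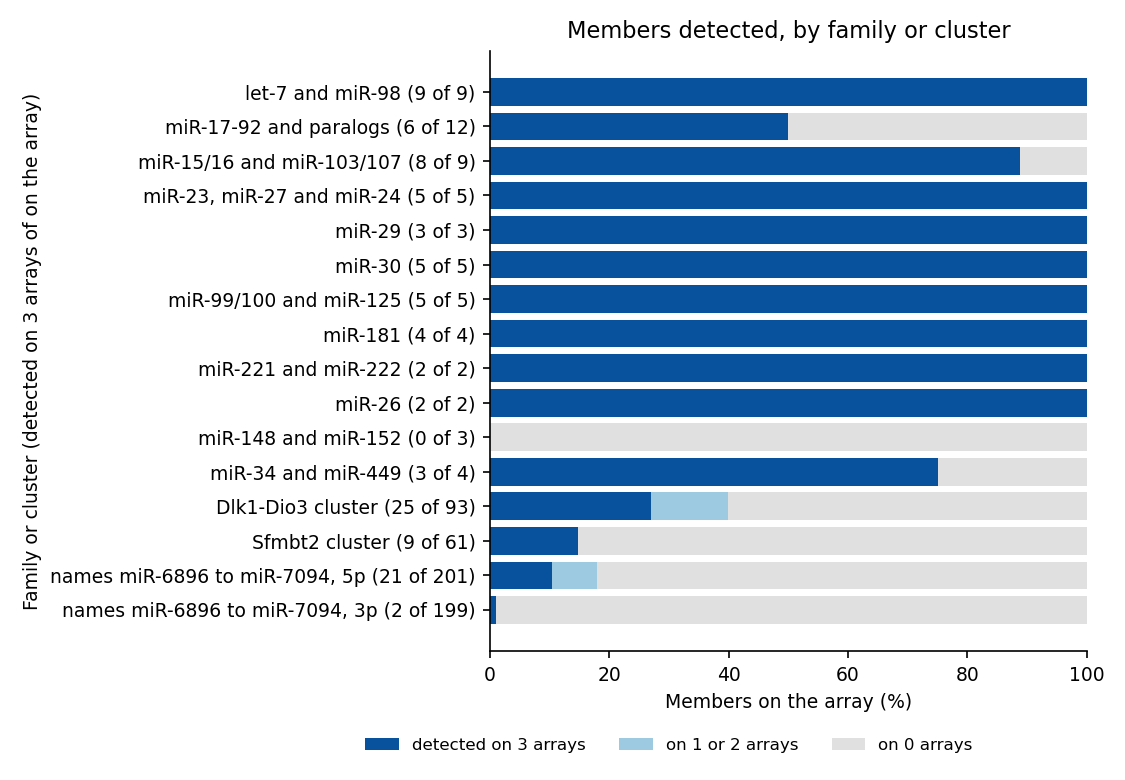
Each bar is a family or genomic cluster and shows the percent of its members on the array that were detected on 3, on 1 or 2, or on 0 sham arrays, with the number detected on 3 of the number on the array in brackets. let-7, miR-29, miR-30, miR-181 and several others fill the bar, while 25 of 93 Dlk1-Dio3 and 2 of 199 3p arms of miR-6896 to miR-7094 were detected on 3 arrays.

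The Dlk1-Dio3 region on chromosome 12, an imprinted domain whose many miRNAs come from the maternal allele and are rich in brain, gave 25 detected of 93 (26.9%, beside 12.4% of all miRNAs on the array). The count was 16 with every spot and 10 with every probe above background, and 30 by the scanner software's call. A stretch at chr12:109709065-109747914 (+ strand) held 14 hairpins with a detected arm, 16 mature miRNAs of the 69 measured there, and a second at chr12:109590459-109595352 (+ strand) held 6 of 10. Its members were mostly dim (median rank 155) apart from miR-494-3p. Those next in signal were miR-434-3p (311, 280.1 and 493), miR-300-3p (259, 299 and 522), miR-410-3p (216, 269 and 504) and miR-127-3p (282, 241 and 368). Another 12 passed on 1 array only. Chromosome 12 as a whole had 31 detected of 161 miRNAs with a sequence (19.3%).

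miR-494-3p also differed from most of the region in its behavior on replicate 1. After scaling, the median difference of replicate 1 from the other arrays was -0.40 over the 25, and 3 of 25 were higher on replicate 1, by 0.85 for miR-494-3p, 0.17 for miR-370-3p and 0.09 for miR-485-5p.

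The rodent-specific group of miR-297, miR-466, miR-467 and miR-669, known for its cluster in Sfmbt2, had 9 detected of 61 (14.8%, beside 12.4% of all miRNAs on the array). Without miR-467a-3p, whose name is uncertain, these were miR-466f-3p, miR-466h-3p, both arms of miR-466i, miR-466q, miR-467f, miR-669c-3p and miR-669p-3p. The 3 with a matched position lie elsewhere, miR-466i-3p in the span of Cdk13 on chromosome 13, miR-466q in that of Tnik on chromosome 3 and miR-467f in that of Fxr2 on chromosome 11. The brightest were miR-466i-5p (244, 215 and 253) and miR-669p-3p (244, 192 and 208). With the 2 names exchanged the count was 8 of 61.

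miRNAs are numbered in order of discovery, and the late numbers come mainly from deep sequencing. Detection was most frequent up to number 500 and did not fall steadily after it. The share detected on all 3 arrays was 23.0% of let-7 and numbers to 500 (142 of 618), 6.97% of numbers over 500 to 1000 (14 of 201), 7.94% of those over 1000 and under 3000 (10 of 126), 11.7% of those from 3000 to under 6000 (26 of 222) and 5.88% of those of 6000 and over (42 of 714). Names with a number of 3000 or more were 29.1% of the 234. Among miRNAs with a sequence they were 61 of the 205 detected and 823 of the 1608 on the array. Their median GC content, among those detected, was 63.6%, against 55.0% for all such miRNAs with a sequence, and for numbers under 3000 the values were 45.5% and 47.8%.

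Among the names of 3000 or more, the 5p arm was detected more often than the 3p arm. Of the 376 5p names with a number of 3000 or more, 34 were detected (9.04%), and of the 376 3p names 9 (2.39%). Under 3000 the shares were 20.1% (80 of 399) and 18.3% (75 of 409). In the run of names from miR-6896 to miR-7094, 21 of 201 5p arms (10.4%, beside 12.4% of all miRNAs on the array) and 2 of 199 3p arms were detected. These counts were 31 and 8 by the scanner software's call, 31 and 7 with any 1 spot, 18 and 1 with every spot and 13 and 1 with every probe above background. The brightest 5p arms of that run were miR-7047-5p (1227, 804 and 1082), miR-7042-5p (2042, 561 and 639) and miR-7005-5p (1543, 432 and 501, within the span of Lama5). All 21 were higher on replicate 1 than the mean of the other arrays (median 0.97 on the scaled log2 scale), and they held 6.57% of the signal there against 3.54% and 2.98%. Of all 68 detected names of 3000 or more, 60 were higher on replicate 1. The 21 were detected on each of replicates 2 and 3 as well.

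**Figure D5:**
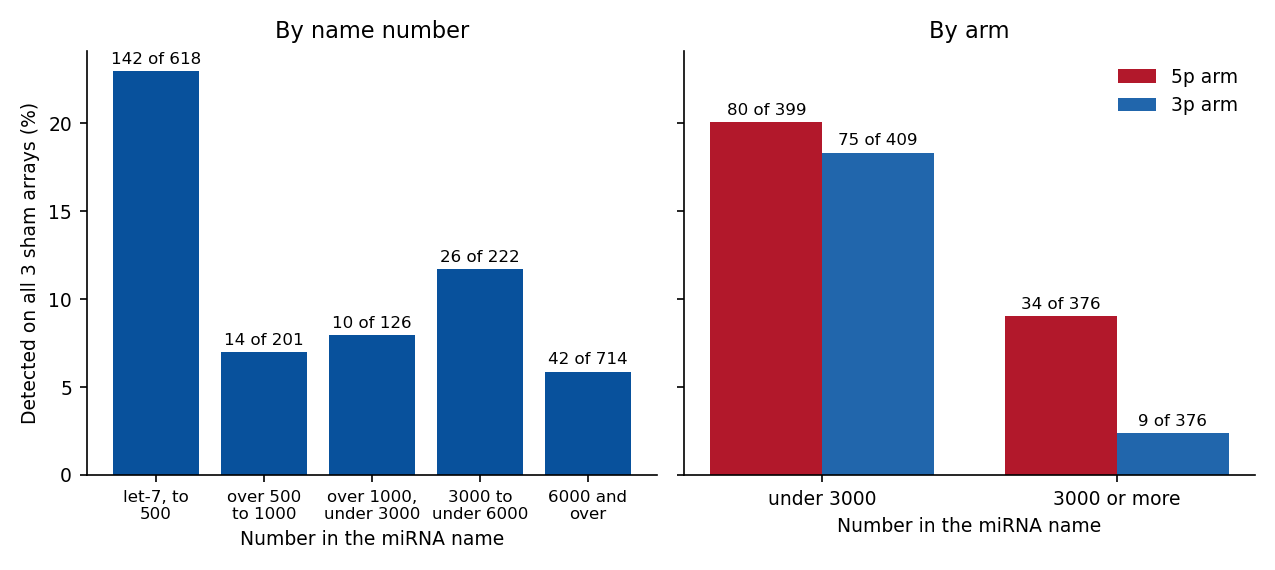
The vertical axis of both panels is the percent of the miRNAs on the array that were detected on all 3 sham arrays, by the number in the name (left) and by arm for names under 3000 and of 3000 or more (right), with counts over the bars. let-7 and numbers to 500 reach 23.0%, and in the late names the 5p arm (9.04%) stands above the 3p arm (2.39%).

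For 723 hairpins both arms were on the array under a shared name. Of these, 88 had only the 5p arm detected on the 3 arrays, 63 only the 3p arm, 10 both and 562 neither. Hairpins whose arms differ in name beyond the arm were not paired and are missing from these counts. Among them, miR-129-5p and miR-129-2-3p were both detected on the 3 arrays, as were miR-219a-5p and miR-219a-2-3p. The 10 are therefore not every hairpin with both arms detected. The 10 were miR-9, miR-29c, miR-30a, miR-30e, miR-140, miR-300, miR-409, miR-434, miR-466i and miR-3620. let-7 is kept mainly from the 5p arm, and none of its 3p arms on the array was detected, as with let-7b (5p 3428, 3480.3 and 5489, 3p 23.0, 24.8 and 22.0).

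For miR-9 both arms act in neural development, and the 3p arm gave 1882, 2061 and 3318 and the 5p arm 439, 453 and 747. For miR-29c the 3p arm gave 1224, 1151 and 2085 and the 5p arm 41.6, 44.7 and 70.4. Both of these hairpins gave more signal from the 3p arm. For miR-30a the 5p arm gave 585, 581 and 1002 and the 3p arm 36.7, 42.5 and 66.9. For miR-434 the 3p arm gave 311, 280.1 and 493 and the 5p arm 23.5, 27.7 and 39.4. In 9 of the 10 hairpins the same arm was the brighter on the 3 arrays, with an SD of the log2 ratio between arms of 0.01 to 0.21. The exception was miR-3620, whose 5p arm gave 49.3, 30.1 and 42.6 and whose 3p arm gave 46.9, 45.7 and 47.6 (SD 0.34), so that the 5p arm was brighter on replicate 1 only. Arms are read by different probes, so the ratio is one of signal.

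The matched sequences of detected and undetected miRNAs were alike in length (median 22 nt in both) and close in GC content (median 50.0% for the 205 detected and 52.4% for the 1329 detected on 0 arrays). A first base of U, which Argonaute favors, was found in 45.9% of those detected, 39.5% of those detected on 0 arrays and 40.2% of all 1608 on the array with a sequence. The motifs GGAG, CCCU and GGCU, which have been tied to loading of miRNAs into exosomes, were searched on the mature strand only. At least 1 of the 3 was held by 35.1% of the detected miRNAs, 34.2% of those detected on 0 arrays and 35.2% of all. GGAG was held by 16.6%, 12.4% and 14.4%, CCCU by 7.80%, 12.9% and 11.7%, and GGCU by 14.6%, 12.6% and 13.1%. The pooled shares hid a difference by name number. For numbers of 3000 or more, any motif was held by 63.9% of those detected and 42.3% of all, and GGAG by 42.6% and 18.6%. Under 3000 any motif was held by 22.9% of those detected and 27.8% of all, and GGAG by 5.56% and 9.94%. A match is a description of the letters and does not show a bound protein.

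Among the detected miRNAs, GGAG went with replicate 1. Of the 34 detected miRNAs that hold it, 31 were higher on replicate 1 than the mean of the others (median 0.75 on the scaled log2 scale), against 46 of 171 without it (median -0.34). At a GC content over 60%, 23 of 24 with GGAG and 28 of 40 without it were higher on replicate 1. At 60% or less, 8 of 10 with it and 18 of 131 without it were higher. The motif overlapped with name number. Among detected miRNAs with a sequence, 26 of 61 numbered 3000 or more hold GGAG, against 8 of 144 under 3000. Of the 68 detected names of 3000 or more, 60 were higher on replicate 1, and motif and name number were not separated. Of the 31 miRNAs with a sequence that were detected on replicate 1 only, 22 hold GGAG (71.0%), against 3 of the 26 detected on replicate 3 only (11.5%). The cause was not tested.

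The miRNAs that varied most between the sham arrays were miR-6354 (228, 71.2 and 54.8), miR-1306-3p (575, 189 and 147), miR-7219-5p (175, 42.2 and 48.9), miR-5622-3p and miR-7042-5p. Their scaled SDs were between 1.02 and 1.17, and each was highest on replicate 1. miR-1306-3p lies within the span of Dgcr8, which encodes a partner of Drosha in miRNA processing (chr16:18284248-18284268, - strand). Of the 234, 49 had an SD over 0.5.

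At the other end, miR-326-3p (62.1, 50.6 and 75.7), miR-5119 (82.5, 65.3 and 93.9), miR-127-3p, miR-140-5p (53.6, 46.2 and 72.3) and miR-383-5p (50.8, 43.3 and 70.4) varied least, with SDs between 0.05 and 0.10. The 5 dimmest of the 234 were miR-3082-5p (22.4, 23.8 and 31.0), miR-485-5p (26.1, 17.2 and 32.5), miR-93-5p, miR-140-3p (21.3, 18.4 and 29.2) and miR-141-3p. They lay close to the lowest signals at which any miRNA was detected, and a miRNA under that level may still be present.

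Beyond the 234, 34 miRNAs were detected on replicate 1 alone, 1 on replicate 2 alone and 29 on replicate 3 alone. The brightest on replicate 1 alone was miR-483-5p (85.2, 28.5 and 36.1), an arm from within Igf2, and the brightest on replicate 3 alone was miR-433-5p (30.0, 33.7 and 44.0). Those on replicate 1 alone had a median GC content of 59.1%, and those on replicate 3 alone one of 43.4%. Without replicate 1, 240 miRNAs were detected on both remaining arrays, the 234 and 6 more.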

How the data were processed

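Exosomal RNA of 3 sham samples was hybridized to one-color Agilent miRNA arrays. The labels describe Cy3-labelled cRNA from a linear amplification kit, whereas the study's methods describe dephosphorylation and direct Cy3-CTP labelling of total RNA. For each array the authors deposited its scanner file (Agilent Feature Extraction 10.7.1.1, per the submitters' processing notes), in which each spot has a background-corrected intensity on a linear scale, not normalized between arrays, and a call against background. They also deposited a table of processed log2 values whose scaling and centring are not given in the sources used here. Its median is -3.32, the log2 of 0.1, in each sham column, brighter miRNAs are higher in it, and over the 234 miRNAs its Spearman correlation with the summed signals is 0.985 to 0.989, so it was used only as an alternative.

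Each array holds 58594 spots, 2164 of them controls. Control spots and 1081 to 1236 outlier spots per array were left out, the remaining spots of a probe averaged and probes of a miRNA summed. A probe took the name that most of its spots carry. Ranks are by the mean log2 signal, and SDs are of log2 signals after division by the 75th percentile of the detected 234 on that array. The number of arrays, 3, limits the precision. One group was described, so no test between groups was made.

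The miRNAs named are the 20 brightest, the 5 with the largest and the 5 with the smallest SD, the 5 dimmest, every member of the cell type lists, and members of the family lists. miR-483-5p, miR-433-5p, the brightest 5p arms of miR-6896 to miR-7094 and those named for their arms were added after their values were seen. The members and lists were chosen with earlier results of these data known, and lists were written from general knowledge. RefSeq sequences matched 1608 of 1881 miRNAs on the array (85.5%), and gene spans are from the same annotation on either strand. The detection and summing steps were tested on simulated data. Python 3.11.15, NumPy 2.4.6, pandas 2.3.3, SciPy 1.17.1, and R 4.3.3 with limma 3.58.1 (normexp) were used. Alternatives were other detection calls, other signals per miRNA, other scalings, the deposited log2 table, and leaving out each array. The exchange of 2 probe names (miR-467a-3p, miR-124-3p) was chosen after seeing the data. miR-486b-5p and miR-106a-5p were not analysed here.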

Additional observations from a re-analysis of the deposited data

How the results depend on the processing

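No paired analysis was possible because 1 group was described and no groups were compared. Of 127 values recomputed under an alternative, 105 stayed within the limits of change used here (1.5 times for a count, 1 SD between arrays for another value). The count of 234 was 303 by the scanner software's call, 297 with any 1 spot and 199 with every spot, and 236 to 249 with an array left out (240 without replicate 1, when 287 were on at least 1 array and 155 hairpins had 1 arm detected), where the larger sets hold all 234 and the 199 all lie within them. Asking for every probe above background lowered it to 139, the miRNAs detected on at least 1 array from 321 to 209, hairpins with 1 arm detected from 151 to 90 and detected members of the lists from 131 to 84. Hairpins with both arms detected, as paired by name, were 10, and 18 by the software's call and 17 with any 1 spot. They were 5 with over 0.75 of spots, 5 with every spot and 2 with every probe. The share of names numbered 3000 or more went from 29.1% to 34.3% by the software's call and 34.7% with any 1 spot, and the share with a motif from 35.1% to 40.2% with any 1 spot. The difference in median GC content, -2.38 percentage points, was 0 by the software's call and 0.21 with any 1 spot. Of 23 lists, the count moved by over 1.5 times for 7 (microglia and myeloid, other tissues, miR-200, miR-17-92, Dlk1-Dio3 and both arms of miR-6896 to miR-7094), each time under a looser or stricter call or, for miRNAs of other tissues, also without replicate 1.

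The 10 brightest held a mean of 43.6% of the signal, 38.6% with the software's total signal and 34.7% after normexp. Of the 20 brightest, 18 to 20 stayed under every other signal or left-out array. The lowest correlation between arrays, 0.920, was 0.855 with the software's total signal and 0.922 to 0.984 with an array left out. The median SD, 0.31, was 0.43 with no scaling and 0.45 with the percentile over all miRNAs, and 0.14 to 0.38 with an array left out. Causes were not tested. Signal over background limits all of these: dim miRNAs lie near the level of detection.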
